A study of Homo sapiens with 6 samples.

Results

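Transcripts of 56 chemokine, cytokine and receptor genes were examined among the 60624 genes of an RNA-seq count table from A549, a human lung adenocarcinoma cell line. The 56 genes were taken by symbol from a given list of chemokines, interleukins, colony-stimulating factors, TNF family members and their receptors, and all 56 had a row. The list holds 32 ligands or antagonists and 24 receptors. PolyA RNA came from 3 libraries of parental A549 cells (genotype WT) and 3 libraries of A549 cells carrying a RAVER1 knockout made with CRISPR/Cas9. The RAVER1 protein binds RNA and is known to work with PTBP1, a repressor of exon inclusion. No other treatment is named for either group. The knockout libraries share the name RAVER1_KO2, and the labels do not say whether this is 1 clone, so the p-values below rest on the variation among these libraries, which may be technical, and not on that among independently made knockout lines.

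Chemokines are small secreted proteins that guide migrating cells through G protein-coupled receptors, and they are classed by the spacing of their first cysteines as CXC, CC or CX3C. Interleukins and the colony-stimulating factors act through single-pass receptor chains that pair up, often around a shared chain such as IL6ST (gp130) for the IL6 family or IL1RAP for the IL1 family, and many of these chains signal through JAK kinases and STAT factors. TNF and IL1 receptors signal to NF-kB, a factor family that is itself known to drive many chemokine genes in airway epithelium.

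RAVER1 itself checks the labels. Its CPM (read counts scaled to library size with TMM factors) was 73.2, 65.7 and 70.3 in parental cells and 2.84, 2.81 and 2.54 in knockout cells, a log2 fold change of -4.67 (SE 0.079, edgeR quasi-likelihood test, Benjamini-Hochberg adjusted p 1.24e-18). Total counts ran from 29811747 to 39910127 per library. Of 16652 genes tested, 41.4% were past an adjusted p of 0.05, 21.3% higher and 20.1% lower in knockout cells, and the median log2 fold change of all tested genes was 0.0019. Genes of chromosome 2 were shifted upward (median 0.42, with 752 of 1125 tested genes higher and 63 lower), and 10 of the 56 members lie there. Keratins KRT8 and KRT18 were abundant in both groups, at 3761 and 2844 CPM in parental and 2267 and 1479 CPM in knockout libraries.

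Of the 56 members, 36 were expressed, taken as a mean of at least 0.5 CPM in either group, namely 17 of 32 ligands and 19 of 24 receptors. Just inside this limit stood IL18R1 (0.506 CPM in parental, 0.551 in knockout libraries), and just outside it stood TNFRSF1B (0.448 and 0.362). The low-count filter of edgeR kept 37 members, the 36 expressed ones and TNFRSF1B. Among these 37 the knockout level was higher for 12 and lower for 10, or 59.5% of those tested against 41.4% of all genes. Changes of at least 2-fold were 10, with 6 higher and 4 lower, where 6.83% of all tested genes changed by as much. The values of the 2 groups did not overlap for 26 of the 37 members, against 50.2% of all genes. The members' median log2 fold change was 0.12. ACKR3, CCL5 and IL6 had a mean under 0.5 CPM in parental cells and CX3CL1, CXCR4 and IL1R2 a mean under 0.5 CPM in knockout cells, so the 37 are in part those that a difference brought past the filter, and their counts are given as a description. No test of the list as a set was made.

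**Figure D1:**
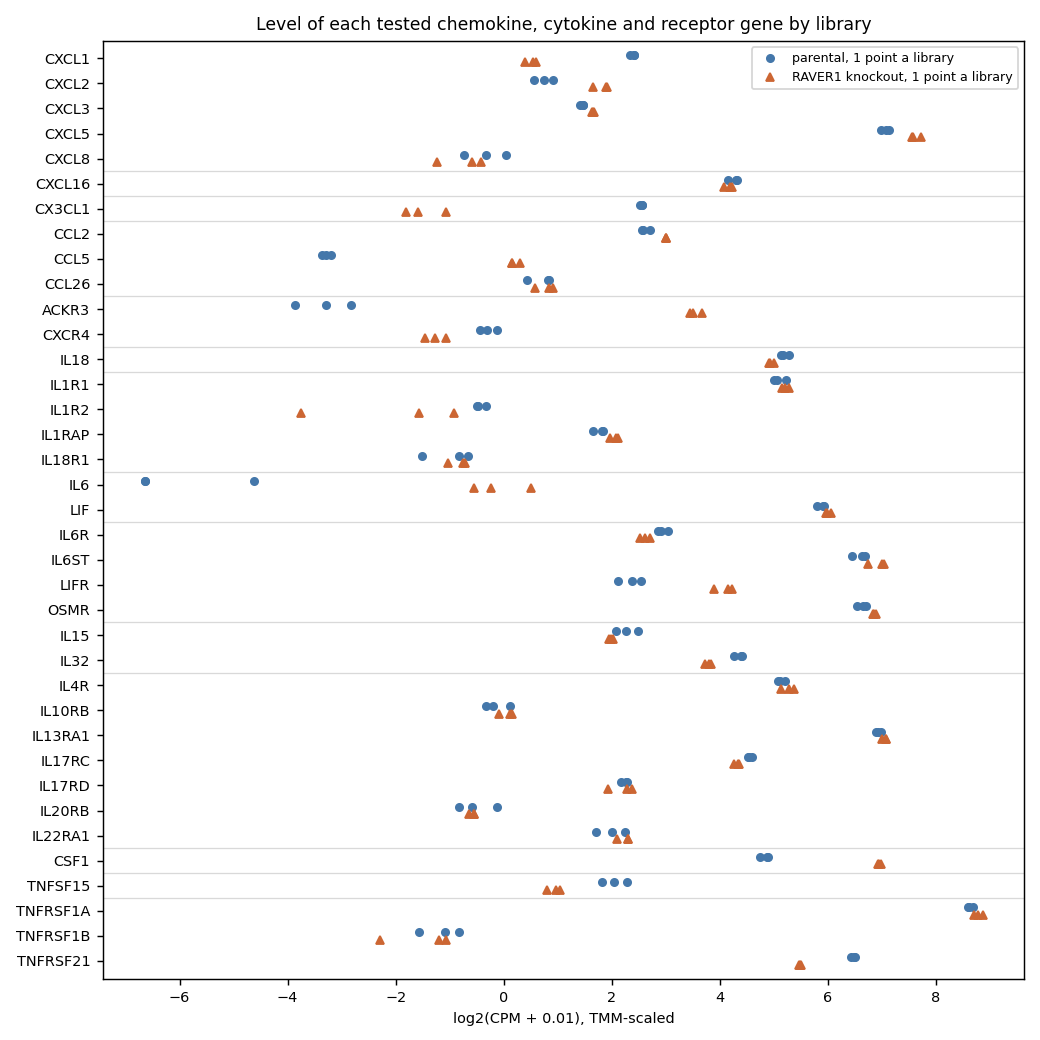
Level of each of the 37 tested members in each library, as log2(CPM + 0.01), with parental libraries as circles, knockout libraries as triangles and grey lines between classes of ligands and receptors. ACKR3, CCL5 and IL6 sit far to the right in the 3 knockout libraries and CX3CL1 and CXCL1 far to the left. The points of most receptors lie close together on this wide scale. The groups still did not overlap for 12 of the 20 tested receptors, against 50.2% of all genes.

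The chemokines of the ELR type, which carry a Glu-Leu-Arg sequence before the first cysteines and are known to attract neutrophils through CXCR1 and CXCR2, moved in different directions although their genes are neighbours. The 6 listed genes lie on hg38 chromosome 4 between the start of CXCL8 at 73740506 and the end of CXCL2 at 74099293. In this order along the chromosome, CXCL8 was not past the threshold, CXCL6 was nearly absent, CXCL1 fell, CXCL5 rose, CXCL3 was not past the threshold and CXCL2 rose. Their start regions are shown here because CXCL1, which fell, and CXCL2, which rose, hold the same motif there. The sequences are the 160 bases before the RefSeq start (GRCh38.p14), 5′ to 3′ on the strand of the gene, with the IL6 region for comparison since IL6 is described below. Capitals mark matches, on either strand, to the kappa B consensus of NF-kB (10 letters, by name), to the AP-1 motif TGANTCA and to the C/EBP motif TTGCNNAA.
CXCL8, chr4:73740409-73740568, plus strand: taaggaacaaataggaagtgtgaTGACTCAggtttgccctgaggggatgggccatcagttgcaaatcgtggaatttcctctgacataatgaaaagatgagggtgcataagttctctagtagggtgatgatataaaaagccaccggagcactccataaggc
CXCL6, chr4:73836518-73836677, plus strand: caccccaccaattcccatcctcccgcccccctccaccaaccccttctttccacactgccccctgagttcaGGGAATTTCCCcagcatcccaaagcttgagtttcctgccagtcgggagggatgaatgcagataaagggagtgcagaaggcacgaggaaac
CXCL1, chr4:73869233-73869392, plus strand: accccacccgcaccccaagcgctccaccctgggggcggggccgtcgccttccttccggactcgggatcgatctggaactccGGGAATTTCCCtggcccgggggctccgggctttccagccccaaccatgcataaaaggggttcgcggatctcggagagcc
CXCL5, chr4:73998678-73998837, minus strand: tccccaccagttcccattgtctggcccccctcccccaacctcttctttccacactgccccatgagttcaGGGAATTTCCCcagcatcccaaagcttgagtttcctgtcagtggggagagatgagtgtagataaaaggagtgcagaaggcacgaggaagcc
CXCL3, chr4:74038690-74038849, minus strand: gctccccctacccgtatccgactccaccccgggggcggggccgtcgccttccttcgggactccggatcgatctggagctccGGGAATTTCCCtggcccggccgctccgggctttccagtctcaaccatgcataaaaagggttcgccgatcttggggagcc
CXCL2, chr4:74099196-74099355, minus strand: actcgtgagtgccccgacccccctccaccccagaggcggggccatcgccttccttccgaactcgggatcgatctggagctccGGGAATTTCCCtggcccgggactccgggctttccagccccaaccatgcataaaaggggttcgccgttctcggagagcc
IL6, chr7:22727040-22727199, plus strand: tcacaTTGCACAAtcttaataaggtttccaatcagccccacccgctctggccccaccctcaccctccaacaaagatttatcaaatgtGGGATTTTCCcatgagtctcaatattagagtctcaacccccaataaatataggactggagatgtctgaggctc

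In CXCL1, CXCL2, CXCL3, CXCL5 and CXCL6 the capitals are 2 overlapping matches to the kappa B consensus in the same 11 letters, which begin 79 bases before the start in CXCL1 and CXCL3, 78 in CXCL2, 91 in CXCL5 and 90 in CXCL6. IL6 holds 1 match that begins 73 bases before its start and 1 C/EBP match that begins 155 bases before it. In CXCL8 the capitals are 1 AP-1 match that begins 137 bases before the start. No stretch of the CXCL8 window matches the kappa B consensus in full. The window does hold tggaatttcc, which differs only in its first letter from the GGGAATTTCC in the capitals of CXCL1, CXCL2, CXCL3, CXCL5 and CXCL6. A kappa B site that departs from the consensus letters is thus not excluded for CXCL8. The promoter table held 45 of the 56 members, with 65 start windows. The kappa B consensus was in 16.9% of the 65 member windows and in 3.34% of all 35116 windows of this length. The 11 members with it were CXCL1, CXCL2, CXCL3, CXCL5, CXCL6, CXCL10, CCL20, IL6, IL22RA1, IL32 and IL4R. The windows of CXCL1, CXCL2 and CXCL3 are closely alike, as are those of CXCL5 and CXCL6. Their matches are therefore not independent of each other. AP-1 was in 7.69% of the member windows and 4.41% of all windows, and C/EBP in 6.15% and 5.38%. A match describes the letters and was not related to binding here. CXCL16, CX3CL1, CCL2, CCL5, ACKR3, IL18, LIF, IL15, CSF1, CSF3 and TNFRSF11B were not in the table.

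CXCL1 stood at 5.28, 5.33 and 5.05 CPM in parental cells and at 1.5, 1.31 and 1.45 CPM in knockout cells. All 3 knockout values lay far below the parental ones, and the log2 fold change was -1.88 (SE 0.13, edgeR adjusted p 1.45e-09). CXCL2, whose protein is a close relative, went the other way. It stood at 1.46, 1.88 and 1.66 CPM in parental and 3.16, 3.77 and 3.70 CPM in knockout libraries, again without overlap, and rose by 1.09 (SE 0.15, edgeR adjusted p 9.33e-06). The order of these transcripts per gene length thus turned, with CXCL1 at 3.83 ± 0.11 and CXCL2 at 1.19 ± 0.15 RPKM (CPM per kilobase of the deposited gene length, SD, n = 3) in parental cells, and 1.04 ± 0.074 and 2.53 ± 0.24 RPKM in knockout cells.

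CXCL5 was by far the most abundant chemokine transcript, at 55.2 ± 2.9 RPKM in parental and 81.0 ± 5.1 RPKM in knockout cells (SD, n = 3). Its libraries read 136, 141 and 127 CPM in parental and 189, 211 and 192 CPM in knockout cells, which did not overlap, and it rose by 0.55 (SE 0.051, edgeR adjusted p 4.69e-08). CXCL3 stood at 2.74, 2.67 and 2.74 CPM in parental and 3.08, 3.19 and 3.12 CPM in knockout libraries. The CXCL3 values did not overlap, yet the difference of 0.20 (SE 0.13) was not past the threshold (edgeR adjusted p 0.217). CXCL8, the classical neutrophil attractant IL-8, was low, with 27, 18 and 33 counts in parental and 16, 26 and 23 in knockout libraries. These ranges overlapped, and the log2 fold change was -0.43 (SE 0.28, edgeR adjusted p 0.248). CXCL6 had 1 count in all 6 libraries.

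Near-identical stretches limit the separation of these genes. Of the distinct 50-base words in the GENCODE 29 transcripts of CXCL2, 12.5% also occurred in another gene, as did 4.81% for CXCL1 and 6.01% for CXCL3. CXCL2 shared 60 words with CXCL1 and 139 with CXCL3. How reads that match several genes were counted is not given in the sources used here, so part of the reads of CXCL1, CXCL2 and CXCL3 can have been lost or misassigned.

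**Figure D2:**
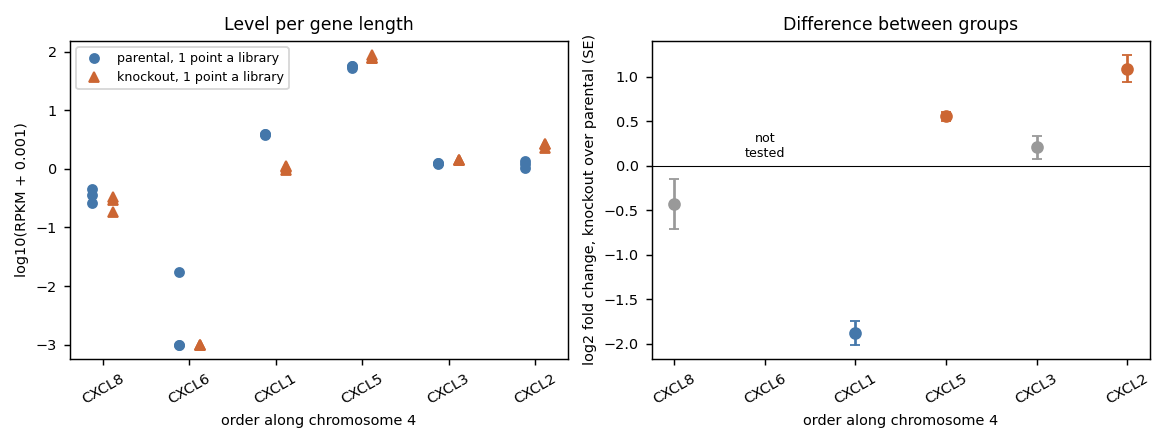
The 6 ELR chemokine genes in their order along chromosome 4, on the left as log10(RPKM + 0.001) for each library and on the right as the log2 fold change of knockout over parental cells with its SE. CXCL1 fell, CXCL5 and CXCL2 rose, and CXCL8 and CXCL3, in grey, were not past the threshold.

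Among the other CXC chemokines, CXCL16, a membrane-anchored chemokine that is shed from epithelial cells, was the one expressed. It read 19.98, 17.7 and 19.8 CPM in parental and 18.8, 17.0 and 18.2 CPM in knockout libraries, with overlap and a log2 fold change of -0.091 (SE 0.072, edgeR adjusted p 0.34). Its exons overlap those of MED11 on the opposite strand, and the strand setting of the counting is not given. CXCL12, the ligand shared by CXCR4 and ACKR3, had 5 counts over the 3 parental libraries (2, 1 and 2) and 3 over the 3 knockout libraries (2, 1 and 0). CXCL14 had 4 and 1 counts, and CXCL10, the interferon-induced CXCR3 ligand, had 0 in every library.

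CX3CL1 (fractalkine), a membrane-tethered chemokine that binds CX3CR1, showed the largest fall of the 56 members. It read 5.89, 5.73 and 5.91 CPM in parental libraries, where replicates differed little, and 0.465, 0.276 and 0.322 CPM in knockout libraries. The log2 fold change was -4.02 (SE 0.18, edgeR adjusted p 1.87e-12), 6.15% of the parental level. CX3CL1 lies on chromosome 16 (57372458 to 57385048, plus strand). The tested neighbour before it, PLLP, fell by 1.64, and the one after it, CIAPIN1, stood at -0.041 and was not past the threshold (edgeR adjusted p 0.58).

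Both CC chemokines that changed rose. CCL5 (RANTES), which attracts T cells and monocytes, had 3 counts in each parental library and 47, 44 and 34 in the knockout libraries. This is 0.0875, 0.0987 and 0.0923 CPM against 1.22, 1.11 and 1.095 CPM, a log2 fold change of 3.57 (SE 0.34, edgeR adjusted p 6.8e-08). From the summed counts of 9 and 125 the ratio was 12.3, with an exact 95% interval of 6.29 to 27.6 that covers counting error alone. Of its 50-base words, 13.9% occur in transcripts of other genes. CCL2 (MCP-1), the main monocyte attractant, read 5.86, 6.52 and 5.97 CPM in parental and 7.99, 8.07 and 7.99 CPM in knockout libraries. Its knockout values were tightly grouped above all parental ones, and it rose by 0.39 (SE 0.092, edgeR adjusted p 0.00198). CCL26, an eosinophil attractant, read between 1.34 and 1.86 CPM over all 6 libraries with overlapping groups (log2 fold change 0.072, edgeR adjusted p 0.79). CCL20 had 0 counts in parental and 2 in knockout libraries, and CCL28 had 1 and 0.

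Of the chemokine receptors, the pair that binds CXCL12 moved in opposite directions. ACKR3 (CXCR7), an atypical receptor that takes up CXCL12 and CXCL11 and signals through arrestins instead of G proteins, had 2, 4 and 3 counts in parental cells and 493, 434 and 352 in knockout cells. In CPM these were 0.0583, 0.132 and 0.0923 against 12.7, 10.9 and 11.3, so the groups were far apart. Per gene length ACKR3 reached 5.64 ± 0.47 RPKM in knockout cells, above CCL2 at 4.04 ± 0.022 RPKM (SD, n = 3). The ratio of the summed counts was 126 (exact 95% interval 66.2 to 276, counting error alone). The fitted log2 fold change was 6.92 (SE 0.21, edgeR adjusted p 4.44e-15), the largest fitted rise of the 56 members. The interval of IL6, 16.8 to 3820, covers that of ACKR3, so the order of ACKR3 and IL6 is not settled. ACKR3 lies on chromosome 2 (236567787 to 236582358, plus strand), where 95% of the 1125 tested genes had a log2 fold change under 1.15. COPS8, the next tested gene after it, 503 kb away, rose by 0.73, and AC019068.1, 273 kb before it, stood at 0.24 and was not past the threshold (edgeR adjusted p 0.376).

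CXCR4, the signalling receptor for CXCL12 that is often linked to metastasis, is on the same chromosome and fell. Its counts were 31, 22 and 26 in parental and 18, 16 and 11 in knockout libraries, or 0.904, 0.724 and 0.800 CPM against 0.465, 0.402 and 0.354 CPM. The groups did not overlap, and the log2 fold change was -0.98 (SE 0.26, edgeR adjusted p 0.00596), against the upward median of chromosome 2. Per gene length CXCR4 stood above ACKR3 in parental cells, at 0.367 and 0.0455 RPKM, and below it in knockout cells, at 0.184 and 5.64 RPKM. CCRL2, a chemerin-binding receptor without known signalling, had 1 count in all.

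Some receptors of the other chemokines described above were looked up after the members' values were seen. CXCR1 and CXCR2 had 0 counts in all 6 libraries, as did CCR2. CX3CR1 had 11 counts over the parental and 7 over the knockout libraries. Not all chemokine receptors outside the members were this low. CCR10 had 51 counts in parental and 58 in knockout libraries, and CXCR5 had 49 and 51, neither past the threshold. CCR7 had 80 and 192 counts and rose by 1.08 (SE 0.21, edgeR adjusted p 0.000435). A count of 0 in all 6 libraries allows a level of up to 0.0145 CPM (3 counts over the 6 libraries, counting error alone).

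**Figure D3:**
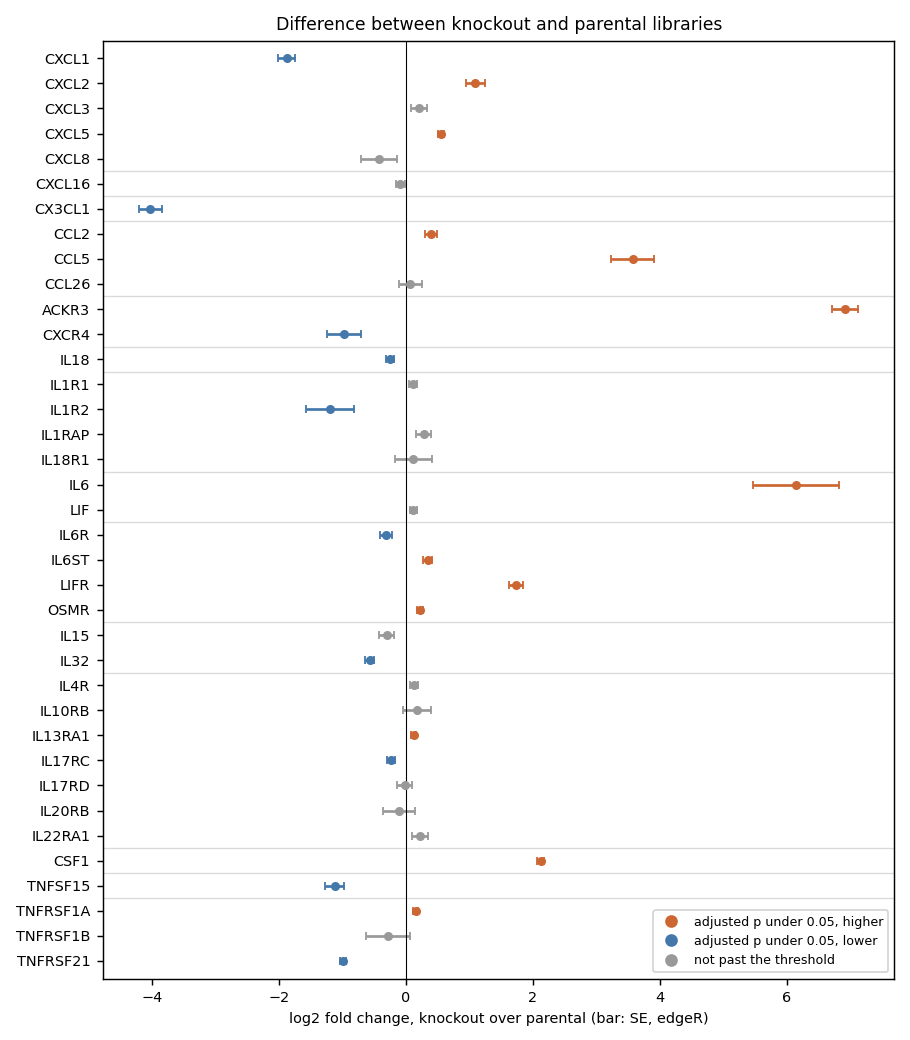
Log2 fold change of knockout over parental cells for the 37 tested members with its SE, coloured by the edgeR call and separated by class. ACKR3 (6.92) and IL6 (6.15) stand at one end and CX3CL1 (-4.02) at the other, and 15 members in grey were not past the threshold.

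In the IL1 family IL18 and the decoy receptor IL1R2 fell, and no member was past the threshold upward. IL18, a ligand made as an inactive precursor, was the abundant one, at 36.2, 39.0 and 34.9 CPM in parental and 30.3, 32.0 and 30.02 CPM in knockout libraries. It fell by 0.25 on the log2 scale (SE 0.060, edgeR adjusted p 0.00213), with all knockout values below the parental ones. IL1A and IL1B, the 2 classical IL1 agonists, were near silent. IL1A had 1, 1 and 2 counts in parental and 3, 11 and 4 in knockout libraries, a ratio of 3.99 with an exact 95% interval of 1.32 to 16.2 for counting error alone. It was below the low-count filter, and in the fit with no filter its edgeR adjusted p was 0.0683. IL1B had 0, 5 and 2 counts against 1, 1 and 3. IL33, an alarmin, had 4 counts, all in knockout replicate 2, and the receptor antagonist IL1RN had 2 counts, both in parental replicate 1.

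The signalling receptor IL1R1 read 32.2, 37.4 and 33.4 CPM in parental and 36.9, 35.6 and 38.7 CPM in knockout libraries, with overlap, and was not past the threshold (0.11, SE 0.064, edgeR adjusted p 0.18). It passed without parental replicate 2 (0.18, adjusted p 0.0452). IL1RAP, the shared accessory chain, read 3.50, 3.59 and 3.14 CPM in parental and 3.90, 4.32 and 4.22 CPM in knockout libraries (0.28, SE 0.12, edgeR adjusted p 0.0662), and passed without knockout replicate 1 (0.33, adjusted p 0.0488). IL1R2, the decoy receptor that binds IL1 without signalling, fell from 24, 24 and 23 counts in parental to 20, 13 and 2 counts in knockout libraries. Its knockout libraries differed widely, at 0.517, 0.327 and 0.0644 CPM, all below the parental 0.700, 0.790 and 0.708 CPM. The log2 fold change was -1.19 (SE 0.38, edgeR adjusted p 0.0168), and without knockout replicate 3 it was -0.79 and no longer past the threshold (adjusted p 0.0631). IL18R1 stood near 0.5 CPM in both groups (0.12, SE 0.29), and IL1RL1, the IL33 receptor whose exons overlap those of IL18R1 on the same strand, had 1 count. IL1R2, IL1R1, IL1RL1 and IL18R1 lie together on chromosome 2, where the flanking genes MAP4K4 (0.60) and SLC9A2 (2.41) rose.

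In the IL6 family, IL6 appeared in knockout cells and the receptor chains LIFR, IL6ST and OSMR rose, while IL6R fell. IL6, a cytokine of the acute phase that signals through IL6R and IL6ST, had 0, 0 and 1 counts in parental cells and 26, 56 and 26 in knockout cells. At 0.672, 1.41 and 0.838 CPM it remained a low transcript in knockout cells, with replicate 2 the highest. From 1 against 108 counts the ratio was 95.8 with an exact 95% interval of 16.8 to 3820 for counting error alone. The fitted log2 fold change was 6.15 (SE 0.67, edgeR adjusted p 5.17e-07). Its size rests on the 1 parental count, and without parental replicate 3, which holds it, the fitted value was 8.10 (adjusted p 3.6e-06). Without knockout replicate 2 it was 5.75, and without parental replicate 1 it was 5.66. Exons of IL6 overlap those of STEAP1B and AC073072.1 on the opposite strand. STEAP1B had 8, 3 and 5 counts in parental and 7, 7 and 11 in knockout libraries. AC073072.1 had 11, 10 and 8 counts in parental and 8, 13 and 13 in knockout libraries. Whether reads of these genes entered the IL6 counts was not tested.

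LIF, the other ligand of the family in the list, was abundant, with 60.2, 55.95 and 61.1 CPM in parental and 66.5, 63.6 and 62.6 CPM in knockout libraries. The groups did not overlap, and the difference of 0.12 (SE 0.052) was not past the threshold (edgeR adjusted p 0.0726). LIF-AS1, which overlaps LIF on the opposite strand, had 10, 9 and 20 counts in parental and 1, 0 and 5 in knockout libraries. Its receptor chain LIFR read 5.19, 5.83 and 4.34 CPM in parental and 14.8, 18.7 and 17.7 CPM in knockout libraries. Every knockout library lay well above every parental one, and LIFR rose by 1.74 (SE 0.11, edgeR adjusted p 2.78e-10), or 3.33-fold. The antisense gene LIFR-AS1, which shares exon sequence on the opposite strand, had 19, 7 and 9 counts against 18, 16 and 15 (log2 fold change 0.31, edgeR adjusted p 0.511).

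IL6ST, the signalling chain that all ligands of the family share, read 87.6, 103 and 99.0 CPM in parental and 108, 128 and 132 CPM in knockout libraries and rose by 0.35 (SE 0.068, edgeR adjusted p 0.000457). OSMR, the oncostatin M chain, read 93.0, 105 and 101 CPM against 115, 119 and 116 CPM and rose by 0.23 (SE 0.049, edgeR adjusted p 0.000901). RICTOR, which overlaps OSMR on the opposite strand, rose by 0.65, and the strand setting of the counting is not given. IL6R, the chain that binds IL6 itself, read 7.21, 8.20 and 7.51 CPM in parental and 5.74, 6.13 and 6.54 CPM in knockout libraries. It fell by 0.32 (SE 0.097, edgeR adjusted p 0.0136), and without parental replicate 2 the value was -0.26 and not past the threshold (adjusted p 0.0646).

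CSF1 (M-CSF), the growth factor of macrophages and their precursors, showed the smallest adjusted p of the members. It read 29.2, 29.5 and 26.8 CPM in parental and 127, 123 and 123 CPM in knockout libraries. Replicates within each group differed by little, and CSF1 rose by 2.12 (SE 0.052, edgeR adjusted p 3.03e-16), or 4.36-fold. Per gene length it moved from rank 12 of the 56 members in parental cells (5.44 ± 0.28 RPKM) to rank 4 in knockout cells (23.7 ± 0.46 RPKM, SD, n = 3 each). Of its tested neighbours on chromosome 1, EPS8L3 was lower, with a log2 fold change of -2.34, and AHCYL1 was higher by 0.40. CSF1R, the CSF1 receptor, had 1 count in parental and 5 in knockout libraries. CSF2 (GM-CSF) had 0 counts in parental and 1, 3 and 1 in knockout libraries, below the low-count filter, and CSF3 (G-CSF) had 0 in every library.

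**Figure D4:**
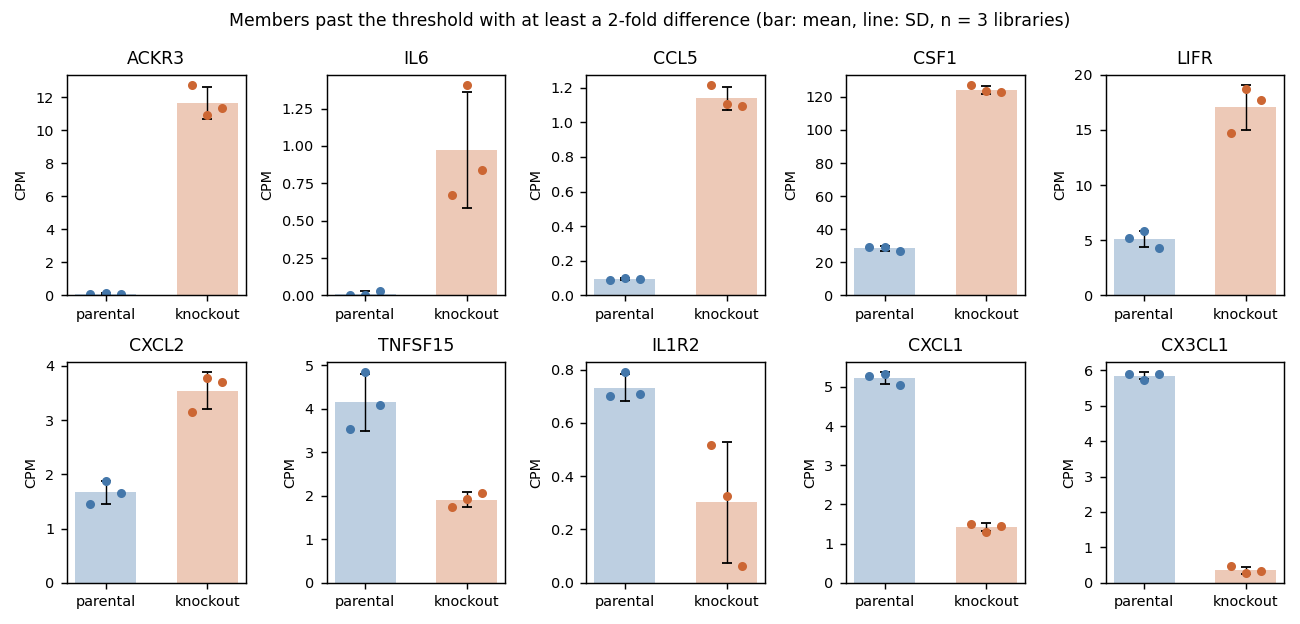
CPM in each library for the 10 members past the threshold with at least a 2-fold difference, with bars from 0 to the group mean, lines for the SD and 1 point for each of the 3 libraries, each panel on its own scale. In all 10 panels the points of the groups do not overlap, and the knockout points of IL6 and IL1R2 are the most spread.

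Of the remaining cytokines IL32 fell, IL15 was not past the threshold and TSLP was not detected. IL32, a cytokine of epithelial and T cells, read 19.1, 21.3 and 21.0 CPM in parental and 13.96, 14.2 and 13.2 CPM in knockout libraries, a fall of 0.57 on the log2 scale (SE 0.071, edgeR adjusted p 3.09e-06) without overlap. IL15, a growth factor of NK and memory T cells, read 4.23, 4.77 and 5.60 CPM against 4.03, 3.85 and 3.96 CPM (-0.30, SE 0.12, edgeR adjusted p 0.0555). It passed the threshold without parental replicate 1 (-0.40, adjusted p 0.0209) and with upper-quartile scaling (-0.33, adjusted p 0.0334). TSLP, an epithelial alarmin, had 0 counts in every library.

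Of the 7 other interleukin receptors tested, IL13RA1 was higher and IL17RC lower. IL13RA1, a chain of the type II IL4 and IL13 receptor, was among the most abundant members at 26.4 ± 0.93 RPKM in parental and 28.7 ± 0.86 RPKM in knockout cells (SD, n = 3). It was higher by 0.12 (SE 0.044, edgeR adjusted p 0.0346). This call was lost with upper-quartile scaling (0.089, adjusted p 0.123), with no filter (adjusted p 0.0592) and without parental replicate 1 (0.099) or 3 (0.11) or knockout replicate 2 (0.11) or 3 (0.11). IL17RC, a chain of the IL17 receptor, read 24.2, 23.1 and 23.1 CPM against 20.1, 19.3 and 20.5 CPM and fell by 0.23 (SE 0.062, edgeR adjusted p 0.00557). IL4R (0.13), IL22RA1 (0.22), IL10RB (0.17), IL17RD (-0.019) and IL20RB (-0.11) were not past the threshold in edgeR. IL4R passed without knockout replicate 2 (0.20, adjusted p 0.0214) and IL22RA1 without parental replicate 1 (0.36, adjusted p 0.0495). Of the 50-base words of IL10RB, 36.3% also occur in transcripts of other genes. Exons of IL20RB overlap those of NCK1 on the same strand. NCK1 had 436, 416 and 413 counts in parental and 602, 716 and 483 in knockout libraries. Whether reads of NCK1 entered the IL20RB counts was not tested. IL7R, with 18 parental and 13 knockout counts, was below the filter.

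In the TNF family TNFSF15 and TNFRSF21 fell and TNFRSF1A was slightly higher. TNF had 0 counts in all 6 libraries. TNFSF10 (TRAIL), a death ligand, had 1, 0 and 4 counts in parental and 0 in every knockout library, and in the fit with no filter its edgeR adjusted p was 0.115. TNFSF15 (TL1A) read 3.53, 4.84 and 4.09 CPM in parental and 1.73, 1.94 and 2.06 CPM in knockout libraries, without overlap, and fell by 1.12 (SE 0.15, edgeR adjusted p 6.14e-06). TNC, the tested gene after it on chromosome 9, fell by 2.49.

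TNFRSF1A, the main TNF receptor, had the highest level of all 56 members in both groups, at 99.1 ± 3.2 RPKM in parental and 110 ± 6.0 RPKM in knockout cells (SD, n = 3). It read 411, 387 and 393 CPM against 466, 418 and 440 CPM and was higher by 0.15 (SE 0.045, edgeR adjusted p 0.00999), and without parental replicate 3 by 0.14 and not past the threshold (adjusted p 0.0572). TNFRSF21 (DR6), a death-domain receptor, read 90.9, 86.2 and 90.0 CPM in parental and 45.2, 44.8 and 44.1 CPM in knockout libraries. Its replicates were close and the groups far apart, with a log2 fold change of -0.99 (SE 0.048, edgeR adjusted p 5.2e-12). TNFRSF1B was low in both groups (-0.28, SE 0.35, edgeR adjusted p 0.571). TNFRSF11B (osteoprotegerin), a decoy receptor, had 1 count in parental and 0 in knockout libraries.

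Ordered by level per gene length, the members at the top of parental cells were TNFRSF1A, CXCL5, IL13RA1, TNFRSF21, LIF, IL18 and OSMR, at 99.1, 55.2, 26.4, 24.8, 15.3, 14.1 and 13.9 RPKM. The mean ± SD intervals of TNFRSF1A and CXCL5 were apart from their neighbours in this order. Those of IL13RA1 and TNFRSF21 overlapped, as did those of LIF and IL18 and those of IL18 and OSMR. In knockout cells the order was TNFRSF1A, CXCL5, IL13RA1, CSF1, LIF, OSMR and TNFRSF21, at 110, 81.0, 28.7, 23.7, 16.6, 16.2 and 12.4 RPKM. There the intervals of LIF and OSMR overlapped, and CSF1 stood apart from both neighbours.

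Other genes of the same pathways were taken from lists written for this comparison with earlier results of these data known. Of 118 further chemokines, cytokines and receptors 42 were tested, and 18 were higher and 8 lower in edgeR. This is 61.9% called against 41.4% of all genes, with a median log2 fold change of 0.17 against 0.0019. DESeq2 called 21 of the 42 and limma-voom 26. Some of the 42, such as EDAR and IL34, passed the low-count filter only through the group where they were high. These counts are therefore also given as a description. EDAR, the ectodysplasin receptor on chromosome 2, showed the largest fall, from 275 to 2 counts (log2 fold change -7.01, SE 0.37, edgeR adjusted p 2.07e-11). IL11, a further ligand of the IL6ST chain, rose by 1.24 (SE 0.075, edgeR adjusted p 1.37e-10), from 11.4 to 27.0 CPM. IL34, the second ligand of CSF1R, rose by 3.96 (SE 0.25, edgeR adjusted p 2.16e-10), from 0.187 to 2.91 CPM, so both CSF1R ligands rose while CSF1R stayed at 5 counts or fewer.

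Of 25 JAK, STAT and SOCS genes, which carry and damp the signal of most interleukin receptors, 25 were tested, and 8 were higher and 4 lower (48% called, near the 41.4% of all genes, median 0.075). SOCS3, the feedback inhibitor bound to IL6ST, rose by 1.19 (SE 0.060) from 17.7 to 40.2 CPM (edgeR adjusted p 1.15e-11), and JAK1 by 0.64 (SE 0.042, edgeR adjusted p 5.89e-10). Of 26 tested adaptors of IL1 and TNF receptors, 8 were higher and 4 lower (46.2% called, also near that share, median 0.051). The NF-kB-inducing kinase MAP3K14 rose by 1.14 and TRAF1 by 1.74, while the ubiquitin ligase PELI1 fell by 3.27.

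Of 19 NF-kB subunits and inhibitors 9 were higher and 0 lower in edgeR, with a median of 0.19. This is 47.4% called, near the 41.4% of all genes, of which 21.3% were higher and 20.1% lower. At an unadjusted p under 0.05, 2 were lower, and DESeq2 and limma-voom put 0 lower. NFKB2 rose by 1.73, RELB by 1.56 and TNIP1 by 0.63, and the inhibitors NFKBIA and TNFAIP3, which are themselves NF-kB targets, rose by 0.59 (SE 0.051) and 1.60 (SE 0.11). Of 13 factors that set the stability of cytokine mRNAs, 4 were higher and 2 lower (46.2% called, near the 41.4% of all genes, median 0.094). ZFP36L2 fell by 0.49, and ZC3H12C and ARID5A rose by 0.64 and 0.77. Of 14 genes of cytokine maturation and shedding 8 were tested, and 3 were higher and 2 lower (62.5% called against 41.4% of all genes, median -0.051). BACE2, which can shed IL1R2, rose by 1.01, the sheddase ADAM17 by 0.56 and its partner RHBDF2 by 0.33.

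**Figure D5:**
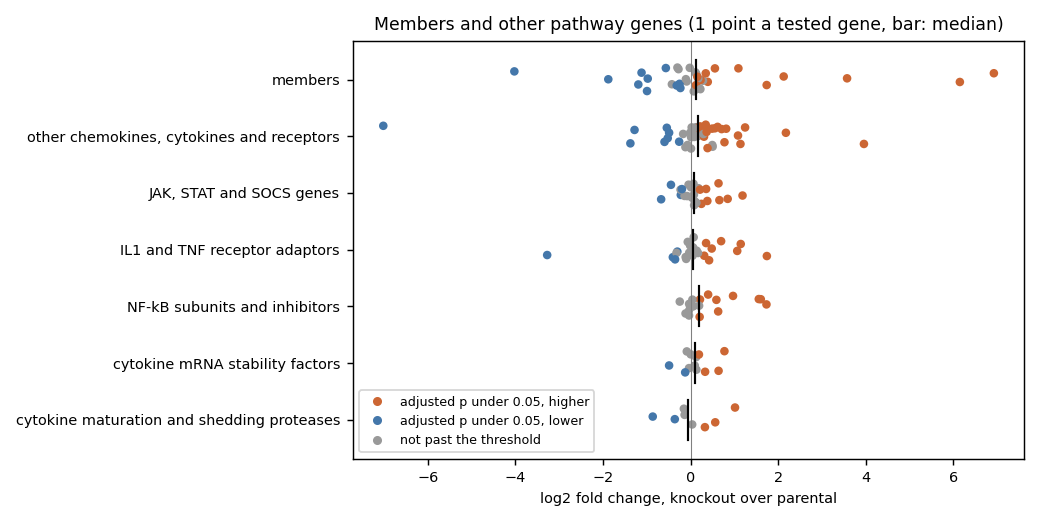
Log2 fold change of knockout over parental cells for every tested member and every tested gene of 6 lists of other pathway genes, 1 point a gene, coloured by the edgeR call, with a black bar at each median. The medians lie between -0.051 and 0.19, and the members spread from -4.02 to 6.92.

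Markers of other cell types were read beside these values. Of 10 leukocyte markers 2 were tested, edgeR, DESeq2 and limma-voom each called 0 of them, 1 was at an unadjusted p under 0.05, and their summed level was 9.35 to 10.9 CPM in parental and 8.92 to 9.49 CPM in knockout libraries. This sum came mostly from ITGAM (parental mean 4.55 CPM, knockout mean 4.60 CPM) and CD14 (parental mean 5.49 CPM, knockout mean 4.51 CPM), neither past the threshold (edgeR adjusted p 0.95 and 0.0704). PTPRC had 2 counts in parental and 3 in knockout libraries, and CD3E, MS4A1 and HBB had 0 in every library. None of 5 endothelial markers passed the low-count filter, with a summed level of at most 0.129 CPM in any library and PECAM1 and CLDN5 at 0. Of 6 fibroblast markers 3 were tested and 3 were higher (COL1A1 0.45, COL3A1 2.40, PDGFRA 1.01), with sums of 46.96 to 50.005 CPM in parental and 64.9 to 69.0 CPM in knockout libraries and DCN at 0 in all libraries. Of 5 lung epithelial carcinoma markers 4 were lower (CDH1 -2.20, KRT18 -0.94 and KRT8 -0.73 among them) and 1 higher, with sums of 8277 to 9115 CPM in parental and 6363 to 7035 CPM in knockout libraries. PDGFRA was not past the threshold in DESeq2 (1.00, adjusted p 0.0984). The part of these shifts in the members' differences was not tested. In bulk RNA, fewer cells that make a transcript and less of it per cell cannot be told apart.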

How the data were processed

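PolyA RNA was extracted with TRIzol and made into stranded mRNA libraries, per the labels' protocols. Per the submitters' processing notes, the authors used cutadapt 2.8, HISAT2 2.1.0, SAMtools 1.10 and featureCounts 2.0.0 with the hg38 build. Not given in the sources used here: annotation release, strand setting and multi-mapping. The deposited table holds raw read counts per gene and library, and a gene length in bases. Total counts were 29811747 to 39910127 per library. Within groups no pair of libraries agreed within sampling noise (chi-square per degree of freedom 2.41 to 8.86). No library was thus a mere repeat of another, and all 6 were kept as separate libraries. This check cannot tell biological from technical replicates.

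edgeR 4.0.16 in R 4.3.3 was run on all genes with filterByExpr (16652 genes kept), TMM scaling and the quasi-likelihood F-test. P-values were adjusted by Benjamini-Hochberg over the genes kept, with 0.05 as the threshold. The step was tested on simulated counts. CPM used TMM-scaled library sizes, RPKM divided these by the deposited length, and SEs came from the F statistic. As alternatives, scaling by RLE or upper quartile was tried, as were no filter, at least 1 CPM in 3 libraries, a replicate block, each library left out, DESeq2 1.42.0, limma-voom (limma 3.58.1), a test against a 1.5-fold change, and members off chromosome 2. Positions, exon overlaps and transcript words came from GENCODE 29, joined by identifier for 58437 genes, and promoter sequences from RefSeq GRCh38.p14.

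The members, the lists and the rules were chosen with earlier results of these data known. Values per library are given for members past the threshold with a log2 change of at least 1 and for CXCR4, CXCL12, IL6, IL6ST, TNF, TNFRSF1A, IL1A, IL1B and CXCL8; other values per library, and genes outside the members and lists, were chosen after their values were seen. Of each list the 3 genes with the smallest adjusted p are named, with SOCS3, NFKBIA and TNFAIP3, except for 1 gene that is not reported here.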

Additional observations from a re-analysis of the deposited data

How the results depend on the processing

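Of the 22 members past the threshold 18 kept their call and direction under each alternative in which they were tested, other than the test against a 1.5-fold change, and 0 reversed. CXCR4, IL1R2 and IL6 were not tested with at least 1 CPM in 3 libraries, which left 11 members higher and 8 lower. With that filter 6380 of 13922 genes were past the threshold. The exceptions were IL1R2, IL6R, IL13RA1 and TNFRSF1A, whose values stand beside their results. Against a 1.5-fold change 6 members were higher and 4 lower, with 1239 of 16652 genes past the threshold. IL1R2, which changed by at least 2-fold, did not pass this edgeR test (adjusted p 0.229), nor did CXCR4 (adjusted p 0.249). TNFRSF21, at -0.99, did pass. In that test 8 of the further chemokines, cytokines and receptors passed, 2 JAK, STAT and SOCS genes, 4 IL1 and TNF receptor adaptors, 4 NF-kB subunits and inhibitors, 0 cytokine mRNA stability factors (6 in the edgeR test against no change, 6 in DESeq2 and 6 in limma-voom, 7 at an unadjusted p under 0.05) and 1 gene of cytokine maturation and shedding. Leaving out 1 library at a time gave 10 to 13 members higher, 9 to 11 lower and 36 to 37 expressed, with 5827 to 7456 genes past the threshold. Without members on chromosome 2, 11 were higher and 8 lower.

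Members that were not past the threshold changed sign under some settings: CCL26 to -0.053 without parental replicate 1 and -0.0019 without knockout replicate 1 (highest 0.17 without knockout replicate 2), IL18R1 to -0.11 without parental replicate 3 (highest 0.29), IL17RD to 0.0033 without parental replicate 1 and 0.092 without knockout replicate 3, and IL20RB to 0.12 without parental replicate 1 (lowest -0.27). The cause was not tested.

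The libraries share a replicate number and nothing else that the labels state. Same-numbered libraries correlated in their deviations from the group mean by 0.129, 0.0292 and 0.0142 for numbers 1, 2 and 3. Differently numbered pairs of a parental and a knockout library ran from -0.0931 to 0.0667. With the replicate number as a block, 13 members were higher and 11 lower and RAVER1 stood at -4.66. The members added were LIF (0.12, adjusted p 0.0113) and IL15 (-0.29, adjusted p 0.0432), and 0 of the 22 calls were lost. Low counts limit what can be said of IL1A, IL1B, CSF2, TNFSF10 and IL7R.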
